A study of Homo sapiens with 3 samples.

Results

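The 10 genes described here encode the MCM helicase and the proteins that load it at replication origins or limit that loading. They were chosen by symbol (MCM2, MCM3, MCM4, MCM5, MCM6, MCM7, MCM10, CDT1, CDC6 and GMNN), and all 10 were found among the 14949 genes of the expression table. RNA sequencing was performed on the human line MIAPaCa-2, established from a pancreatic cancer and described as epithelial by the labels. The groups were untreated cells with a control short hairpin (sh-CTL), untreated cells with a hairpin against METTL3 (sh-METTL3), and sh-CTL cells given NMS-P937, an inhibitor of PLK1, for 24 h at 80 nM (sh-CTL + PLK1i, written PLK1i for short). METTL3 is the catalytic part of the complex that writes N6-methyladenosine into RNA, and PLK1 is a kinase of mitosis. Each group had 1 library, and each hairpin was carried by 1 line, so no p-value was computed and every difference is one between single libraries.

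Replication origins are licensed in G1 phase. The origin recognition complex (ORC) and CDC6 bind DNA and, with CDT1, load rings made of MCM2, MCM3, MCM4, MCM5, MCM6 and MCM7, which later become the core of the replicative helicase. MCM10 is needed to turn the loaded ring into a moving helicase, and geminin, the product of GMNN, binds CDT1 outside G1 phase so that origins are licensed once per cycle. Most of these genes are classical targets of E2F transcription factors.

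The reads in listed genes numbered 37449252 in sh-CTL, 46944889 in sh-METTL3 and 47727551 with PLK1i. METTL3 had a normalized count of 3939 in sh-CTL, 1651 in sh-METTL3 and 3888 with PLK1i. A normalized count is the number of reads divided by a size factor that adjusts for depth. PLK1 stood at 8058, 5226 and 8515 in the same order. The keratin genes KRT8 and KRT18 were abundant (96332 and 51258 in sh-CTL), whereas the epithelial genes EPCAM, CDH1 and KRT7 had no value among the listed genes, and VIM, a mesenchymal gene, stood at 244754. Of the other markers, 0 of 4 acinar, 0 of 3 islet and 0 of 3 endothelial genes had a value, as did 1 of 3 leukocyte genes (CD68) and 2 of 3 fibroblast genes. The summed fibroblast count was 654 in sh-CTL, 48.2 in sh-METTL3 and 412 with PLK1i. In sh-METTL3 VIM was lower (185206) and ZEB1, another mesenchymal gene, higher (3478 against 2927 in sh-CTL). The summed epithelial count was 152239 in sh-CTL, 182995 in sh-METTL3 and 142585 with PLK1i, and CD68 stood at 1755, 3243 and 2647. The part of these markers in the results was not tested.

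Promoters of 4 ring genes, of the loaders CDT1 and CDC6 and of GMNN carry sequence that fits the E2F site. All 6 ring genes were lower with PLK1i than in sh-CTL, whereas CDT1, CDC6 and GMNN, which also hold a match, were not. The part of these sites in the changes was not tested. RefSeq promoters (build GRCh38.p14, from 250 bases before to 50 bases after each gene's first base) were matched for 8 of the 10 genes; MCM4 and MCM5 had no entry. The letters searched on both strands were TTTCCCGC, TTTGGCGC, TTTGCCGC and TTTCGCGC, of which one stretch can hold overlapping matches. Such a match was present for 7 of the 8 genes, including all 4 matched ring genes, against 3.99% of the 27305 genes of the promoter table and 7.40% of the 7349 matched genes whose mean normalized count reached 500. Counted by promoter entry, 7 of the 11 entries of these genes held a match, against 3.31% of 35116 entries, since 2 of the 3 MCM7 entries and 1 of the 2 GMNN entries held none. The windows below are written 5′ to 3′ on the strand of the gene, with the match in capitals. They lie on the plus strand at chr3:127598404-127598433 (MCM2), chr16:88803743-88803772 (CDT1), chr17:40287875-40287904 (CDC6) and chr6:24775322-24775351 (GMNN). The minus-strand windows lie at chr6:52284728-52284757 (MCM3), chr2:135876575-135876604 and chr2:135876513-135876542 (MCM6), and chr7:100101388-100101417 (MCM7).
MCM2: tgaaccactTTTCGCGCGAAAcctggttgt
MCM3: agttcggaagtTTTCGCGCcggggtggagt
MCM6, upstream match: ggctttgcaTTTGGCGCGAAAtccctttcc
MCM6, downstream match: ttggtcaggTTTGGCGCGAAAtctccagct
MCM7: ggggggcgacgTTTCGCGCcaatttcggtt
CDT1: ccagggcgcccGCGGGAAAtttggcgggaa
CDC6: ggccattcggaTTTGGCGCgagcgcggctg
GMNN: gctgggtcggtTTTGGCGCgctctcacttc

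In MCM2 the match is a palindrome that starts 2 bases after the first base of the gene. MCM6 holds 2 stretches of the same length, 152 and 90 bases upstream, each made of a pair of overlapping matches on opposite strands and not a palindrome. The MCM3 and MCM7 matches shown start 4 and 9 bases upstream, and both genes hold a further match 174 and 187 bases upstream. The MCM10 promoter entry held none of these letters in its window.

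The first question was how the licensing genes stood after PLK1 inhibition. All 6 genes of the MCM ring were lower in sh-CTL + PLK1i than in sh-CTL, while MCM10, CDT1, CDC6 and GMNN were not. The summed normalized count of the ring was 82.7% of its sh-CTL value (log2 change -0.27, 95% interval -0.29 to -0.26). The log2 change is the difference of log2(normalized count + 1) between libraries, and the interval is an exact Clopper-Pearson interval of the read ratio that covers counting error only. Scaled to the total reads alone, the ring stood at 1638 CPM with PLK1i, against 1991 in sh-CTL and 2031 in sh-METTL3. In bulk RNA, fewer cells in a phase of the cycle that expresses these genes and less of their RNA per cell cannot be told apart.

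**Figure D1:**
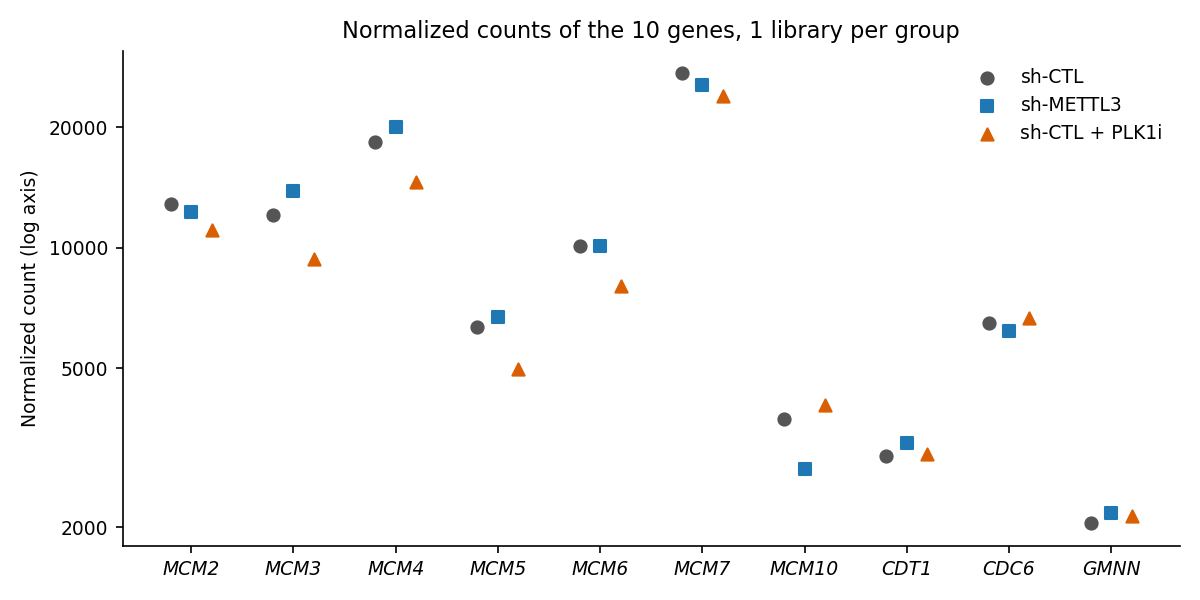
Normalized count (log axis) of each of the 10 genes in the sh-CTL, sh-METTL3 and sh-CTL + PLK1i libraries, 1 library per group. The sh-CTL + PLK1i library is the lowest of the 3 for all 6 genes from MCM2 to MCM7, and the sh-METTL3 library is the lowest for MCM10.

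MCM3, through which the ring contacts ORC and CDC6 during loading, showed the widest range of the ring on the log2 scale. Its gene lies on the minus strand of chromosome 6 at 52128812 to 52149679 (GRCh37, as are all gene positions here), and its normalized counts were 12056 in sh-CTL, 13840 in sh-METTL3 and 9345 with PLK1i. The treated library thus held 77.5% of the sh-CTL count, a difference of -0.37 in log2 (95% interval -0.41 to -0.33).

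MCM5 forms the gate with MCM2 through which the ring opens around DNA. Its gene on chromosome 22 (35796127 to 35821424, plus strand) gave 6351, 6725 and 4983 normalized counts in sh-CTL, in sh-METTL3 and with PLK1i. The log2 change with PLK1i was -0.35 (95% interval -0.40 to -0.30). MCM6, on the minus strand of chromosome 2 at 136597196 to 136634013, gave 10088, 10076 and 8007. The untreated libraries were nearly equal for MCM6 and the treated one was lower, by a log2 change of -0.33 (-0.38 to -0.29).

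MCM4 is a subunit of the ring whose tail is phosphorylated by the CDC7 kinase when the helicase is activated. On the plus strand of chromosome 8 at 48872745 to 48890720, it gave 18332 in sh-CTL, 20016 in sh-METTL3 and 14629 with PLK1i. Its log2 change with PLK1i was -0.33 (95% interval -0.36 to -0.29), close to those of MCM5 and MCM6, whose intervals it overlapped.

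MCM2 and MCM7 were lowered less. MCM2 (chromosome 3, 127317253 to 127341279, plus strand), which also carries a histone-binding tail, gave 12864, 12279 and 11096 in sh-CTL, in sh-METTL3 and with PLK1i. MCM7 (chromosome 7, 99689856 to 99699563, minus strand) gave 27273, 25454 and 23893. Both genes were highest in sh-CTL and lowest with PLK1i. Their log2 changes with PLK1i were -0.21 (95% interval -0.25 to -0.18) and -0.19 (-0.22 to -0.17), and neither interval overlapped that of MCM3, MCM4, MCM5 or MCM6. MCM7 overlaps the gene AP4M1 on the opposite strand by 392 bases. AP4M1 had between 619 and 688 reads in each library, against 23388 to 27461 for MCM7.

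A change was counted when its log2 size was at least 0.32. With PLK1i, 4 of the 10 genes were lower by that fold (MCM3, MCM4, MCM5 and MCM6) and 0 were higher. The intervals of MCM4, MCM5 and MCM6 included the limit itself. Of the 9074 genes whose mean normalized count reached 500, 4.32% were lower and 3.70% higher by that fold. The counting interval lay below 0 for 6 of the 10 genes and above 0 for 1, where 27.8% and 29.9% of the 9074 genes did so. None of the 10 changed by 2-fold, as 2.52% of all 14949 genes did, a set that includes genes with a mean below 500. The median log2 change of the ring was -0.33, that of MCM10, CDT1, CDC6 and GMNN was 0.05, and that of the 9074 genes was 0.01.

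**Figure D2:**
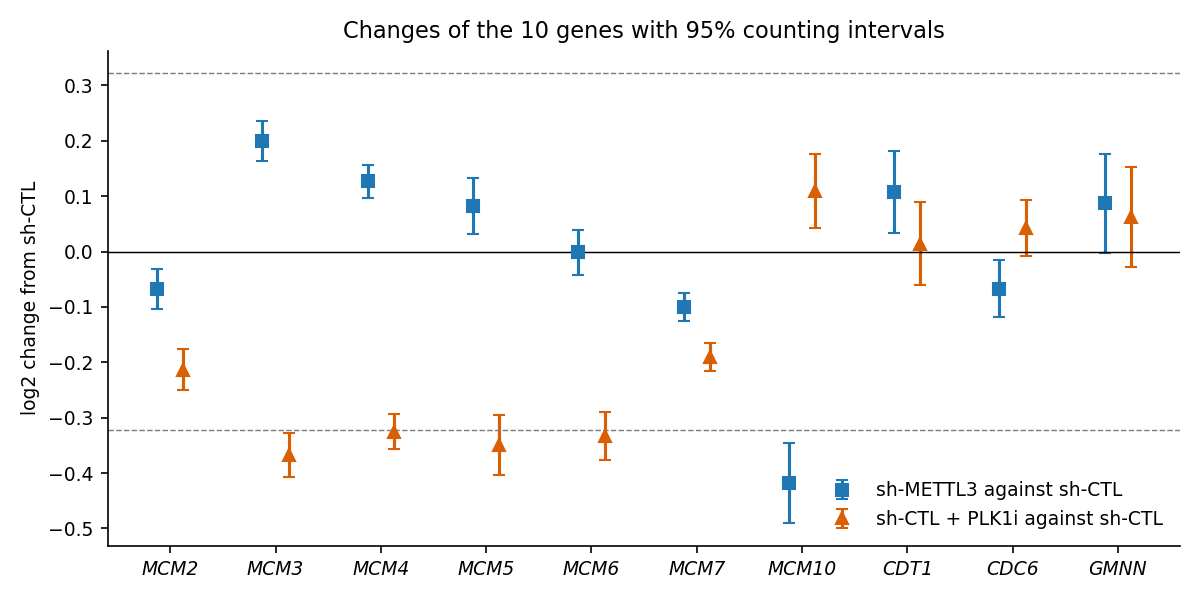
Log2 change of each gene from sh-CTL in sh-METTL3 (squares) and sh-CTL + PLK1i (triangles), with 95% exact counting intervals as bars and dashed lines at a log2 change of 0.32 in either direction. With PLK1i the 6 ring genes lie between -0.37 and -0.19, whereas with sh-METTL3 MCM10 is the lowest at -0.42.

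The ring loaders and their inhibitor stayed near their sh-CTL level with PLK1i. CDC6 (chromosome 17, 38444131 to 38460909, plus strand), the ATPase that joins ORC to load the ring, gave 6480 in sh-CTL, 6186 in sh-METTL3 and 6675 with PLK1i. CDT1 (chromosome 16, 88870197 to 88875666, plus strand), which brings the ring to ORC, gave 3014, 3248 and 3044. GMNN (chromosome 6, 24775159 to 24786327, plus strand) gave 2050, 2177 and 2140.

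With PLK1i the log2 changes of these genes were small, and each interval included 0. They were 0.04 (95% interval -0.01 to 0.09) for CDC6, 0.01 (-0.06 to 0.09) for CDT1 and 0.06 (-0.03 to 0.15) for GMNN. MCM10, on the plus strand of chromosome 10 at 13203558 to 13253110, gave 3742 in sh-CTL, 2800 in sh-METTL3 and 4036 with PLK1i. It was the only one of the 10 with an interval above 0 with PLK1i, at 0.11 (0.04 to 0.18).

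METTL3 knockdown gave a different order of the same genes. MCM10 was at 74.8% of its sh-CTL level, a log2 change of -0.42 (95% interval -0.49 to -0.35), and it was the only one of the 10 past the 0.32 limit. By that fold 9.35% of the 9074 genes were lower in sh-METTL3 and 6.90% higher, and 0 of the 10 were higher. None reached 2-fold, where 6.37% of all 14949 genes did, again with genes of a mean below 500 included.

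Within the ring, the changes with sh-METTL3 went both ways and were small. MCM3 was higher at 0.20 (95% interval 0.16 to 0.24), as were MCM4 at 0.13 (0.10 to 0.16) and MCM5 at 0.08 (0.03 to 0.13). MCM7 was lower at -0.10 (-0.12 to -0.07), as was MCM2 at -0.07 (-0.10 to -0.03), and the interval of MCM6 included 0. The sum of the ring was 101.6% of sh-CTL, so the ring's total RNA was nearly the same in these libraries.

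CDT1 was higher in sh-METTL3 at 0.11 (95% interval 0.03 to 0.18) and CDC6 lower at -0.07 (-0.12 to -0.02). The GMNN change was 0.09, with an interval that included 0. In all, the interval lay above 0 for 4 of the 10 genes and below 0 for 4, against 29.9% and 35.4% of the 9074 genes.

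Both comparisons used the same sh-CTL library, so sh-METTL3 was also set directly against sh-CTL + PLK1i. All 6 ring genes were higher in sh-METTL3. The differences were 0.57 for MCM3 (95% interval 0.53 to 0.60), 0.45 for MCM4, 0.43 for MCM5 and 0.33 for MCM6, and 0.15 and 0.09 for MCM2 and MCM7. MCM10 was lower in sh-METTL3 by a log2 difference of -0.53 (-0.59 to -0.46). At the 0.32 limit, 4 of the 10 were higher (10.6% of the 9074 genes) and 1 lower (13.7%). The lower ring counts with PLK1i were therefore present against either untreated library, but the same single PLK1i library entered both comparisons.

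Per kilobase of exon, MCM7 had the highest level of the ring and MCM5 the lowest in every library. With the union of all exons as length, MCM7 stood at 5499 normalized counts per kilobase and MCM5 at 874 in sh-CTL, a ratio of 6.29, and the ratio was 5.55 in sh-METTL3 and 7.03 with PLK1i. With the longest transcript as length, the ratio was 6.40, 5.64 and 7.15. The ring is built of 1 copy of each subunit, yet by these lengths its RNAs were not equal in level. Both lengths come from the annotation, and the transcripts present in these cells were not determined. MCM5 was the longer gene by either length (7268 and 4599 bases, against 4960 and 3085 for MCM7). Before division by length, MCM7 stood at 27273 and MCM5 at 6351 in sh-CTL.

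MCM10 had 686, 513 and 740 normalized counts per kilobase of exon in sh-CTL, in sh-METTL3 and with PLK1i, below CDC6 (1220, 1165 and 1257) and CDT1 (1092, 1177 and 1103) in each library. The order of CDT1 and GMNN turned on the length used. The ratio of CDT1 to GMNN was 1.32 in sh-CTL by the union of exons and 0.697 by the longest transcript. It moved little across libraries by either length, from 1.28 to 1.34 and from 0.674 to 0.707.

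Changes along chromosomes were uneven in sh-METTL3, so each gene was set beside its 24 nearest measured genes, 12 on each side. The MCM10 neighbors, between 7860460 and 15130775 on chromosome 10, had a median log2 change of -0.50 in sh-METTL3, and 23 of the 24 were below 0. The MCM10 value of -0.42 differed from that median by 0.08. All 24 neighbors of MCM7 were below 0 as well, with a median of -0.18, and the median over 632 genes of chromosome 7 was -0.25. The part of these neighborhoods in the MCM10 and MCM7 values was not tested.

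With PLK1i the medians of the neighbors stayed near 0. They lay between -0.03 and 0.04 around the 6 ring genes, and MCM4 and MCM5 were each below all but 1 of their 24 neighbors. MCM3 was below 22, MCM2 below 21, MCM6 below 20 and MCM7 below 19 of their neighbors.

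**Figure D3:**
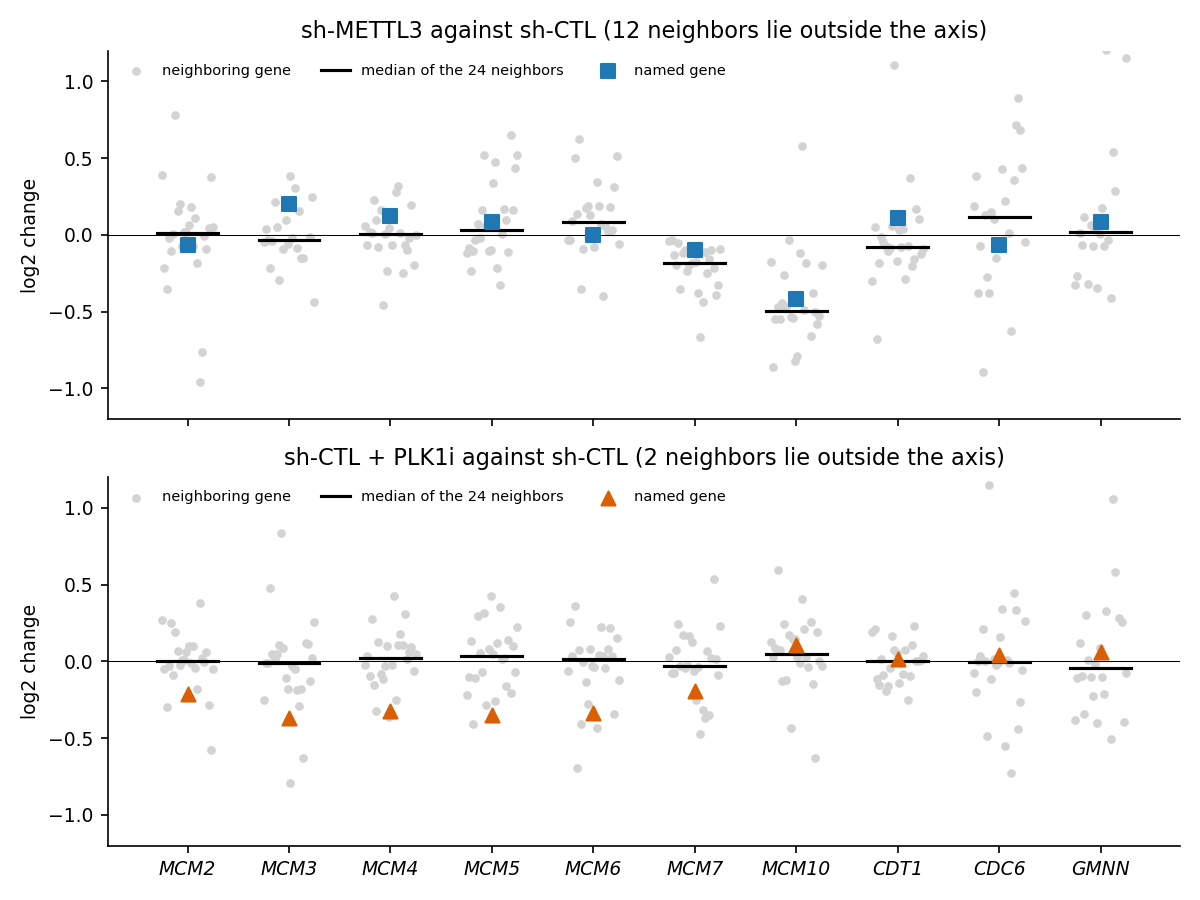
Log2 change from sh-CTL of each of the 10 genes (colored symbols), of its 24 nearest measured genes (gray points) and their median (bar), for sh-METTL3 above and sh-CTL + PLK1i below; 12 and 2 neighbors lie outside the axis. MCM10 lies among lowered neighbors in sh-METTL3, whereas the ring genes lie below the medians of their neighbors with PLK1i.

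Other licensing genes were read from lists beside the ring. Of the 8 genes of origin recognition and loading (ORC1 to ORC6, the MCM chaperone MCMBP and the histone acetyltransferase KAT7), 0 passed 0.32 in either direction in either comparison, and their median was -0.01 in sh-METTL3 and -0.05 with PLK1i. KAT7 was the highest of them with PLK1i (3110 in sh-CTL and 3571 treated, log2 change 0.20) and ORC2 the lowest (2315 and 2075, -0.16). In sh-METTL3, ORC2 was the highest at 0.15 and MCMBP the lowest at -0.19.

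Of 13 genes of helicase activation, 1 was lower by at least 0.32 in sh-METTL3 and 1 higher with PLK1i, and both were DBF4, the activating subunit of the CDC7 kinase that phosphorylates the ring. DBF4 had 3290 normalized counts in sh-CTL, 2542 in sh-METTL3 and 4311 with PLK1i. Its log2 change was -0.37 (95% interval -0.45 to -0.30) in sh-METTL3 and 0.39 (0.32 to 0.46) with PLK1i. DBF4 lies on chromosome 7, where 21 of its 24 neighbors were below 0 in sh-METTL3 (median -0.19) and the median was -0.03 with PLK1i. TOPBP1, a scaffold of helicase activation, was the lowest of the list with PLK1i (9129 in sh-CTL and 7326 treated) and fell just short of the limit, with an interval of -0.36 to -0.27. The intervals of the 13 genes with PLK1i lay below 0 for 7 and above 0 for 4, where 27.8% and 29.9% of the 9074 genes did so. GINS4, a subunit of the active helicase, was the highest in sh-METTL3 at 0.17. With PLK1i the other subunits that join the ring, named after their values were seen, went both ways. GINS2 (-0.26), CDC45 (-0.25) and GINS1 (-0.22) were lower, by no less than MCM2 (-0.21) and MCM7 (-0.19). GINS4 was at -0.06 and GINS3 at 0.29 with PLK1i.

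Of 12 genes linked to the turnover of CDT1, CDC6 and related factors, 2 were lower by at least 0.32 in sh-METTL3 and 1 with PLK1i. KMT5A, a histone methyltransferase degraded by the same ubiquitin ligase as CDT1, stood at 4164 normalized counts in sh-CTL but 2990 in sh-METTL3 (-0.48). CUL1, a scaffold of the SCF ubiquitin ligases, stood at 7118 and 5433 (-0.39). CCNF, the cyclin F subunit of such a ligase, had 2796 in sh-CTL and 2186 with PLK1i (-0.35). KMT5A and CUL1, the latter on chromosome 7, each had 17 of 24 neighbors below 0 in sh-METTL3 (medians -0.09 and -0.08). Of the 24 neighbors of CCNF, 18 were below 0 with PLK1i (median -0.13). SKP1, another ligase subunit, was the highest in sh-METTL3 at 0.20, and CUL1 the highest with PLK1i at 0.13. The list's median was -0.12 in sh-METTL3 and -0.04 with PLK1i. In sh-METTL3 the interval lay above 0 for 3 of the 12 genes and below 0 for 9, against 29.9% and 35.4% of the 9074 genes.

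Of the relatives outside the ring, MCM8, MCM9 and MCIDAS had values, and 0 of the 3 passed 0.32 in either comparison. MCM8, a helicase of homologous recombination, stood at 4253 in sh-CTL, 3585 in sh-METTL3 and 4243 with PLK1i. MCIDAS was the highest in sh-METTL3 at 0.04 and the lowest with PLK1i at -0.12, on 121 to 157 reads. The median of the 3 was -0.20 in sh-METTL3 and -0.09 with PLK1i.

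Among 15 genes of the E2F family and the kinases of S phase entry, 2 were lower by at least 0.32 in sh-METTL3 and 1 with PLK1i. E2F1, an activator of the licensing genes, had 3202 normalized counts in sh-CTL, 2750 in sh-METTL3 and 2426 with PLK1i, a log2 change of -0.40 (95% interval -0.48 to -0.32) with PLK1i. In sh-METTL3, E2F7, a repressor of the same family named after its value was seen, had 662 normalized counts against 1030 in sh-CTL (-0.64). E2F5 had 191 against 351 (-0.87). TFDP2, a dimer partner of E2F, was the highest in sh-METTL3 at 0.25, and the phosphatase gene CDC25A the highest with PLK1i at 0.27. The medians were 0.01 and -0.05.

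Genes with the E2F letters in their promoters had a median near 0. Outside the 10 genes, 538 gene identifiers whose mean reached 500 had a match (MATR3 had 2 identifiers) and their median log2 change with PLK1i was -0.01; 3.72% of them were lower by at least 0.32, against 4.17% of 6804 without a match. Among the lists, 5 of 9 matched genes of helicase activation and 10 of 26 of the replication fork held a match. So did 5 of 11 of the E2F list, 2 of 8 of origin recognition and 2 of 11 of CDT1 and CDC6 turnover. The counts were 2 of 4 for the other MCM and geminin family and 2 of 25 for G2 and M phase. Of the 7349 matched genes whose mean reached 500, 7.40% held a match. The 4 family genes did not all have an expression value.

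At the replication fork, where the ring travels with polymerases and the PCNA clamp, 0 of 30 genes passed 0.32 with PLK1i and the median was -0.06. The lowest was POLD3 at -0.24 and the highest POLD4 at 0.20, both subunits of DNA polymerase delta. POLD3 was thus lower than MCM2 (-0.21) and MCM7 (-0.19), which also missed the 0.32 limit. With PLK1i the interval lay below 0 for 16 of the 30 genes and above 0 for 8, against 27.8% and 29.9% of the 9074 genes. In sh-METTL3, 1 was higher (POLE4, a small subunit of polymerase epsilon, 0.39) and 2 were lower. RFC2, of the clamp loader, was the lowest at -0.34, on chromosome 7 among neighbors with a median of -0.46. The other was POLD2, also on chromosome 7 and at -0.34, named after its value was seen.

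G2 and M phase genes were described beside the ring because PLK1 acts in mitosis. Of 30 such genes, 2 were higher and 3 lower by at least 0.32 with PLK1i, with a median of 0.06. TOP2A, the topoisomerase that untangles sister chromatids, stood at 43126 in sh-CTL, 50297 in sh-METTL3 and 29422 with PLK1i (log2 change -0.55), and CKS2, a partner of cyclin-dependent kinases, at 6534, 7023 and 8601 (0.40). The others past the limit, named after their values were seen, were CDK1 (-0.44), UBE2C (-0.34) and AURKA (0.36). In sh-METTL3, 2 were higher and 1 lower, with a median of 0.10. The interval in sh-METTL3 lay above 0 for 20 of the 30 genes and below 0 for 6, against 29.9% and 35.4% of the 9074 genes. NDC80, a kinetochore gene, stood at 0.35 among neighbors with a median of 0.32 (1 of 21 below 0), KIF20A, likewise named after its value was seen, at 0.34, and PLK1 itself at -0.62. The part of cell cycle position in the lower ring counts was not tested.

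**Figure D4:**
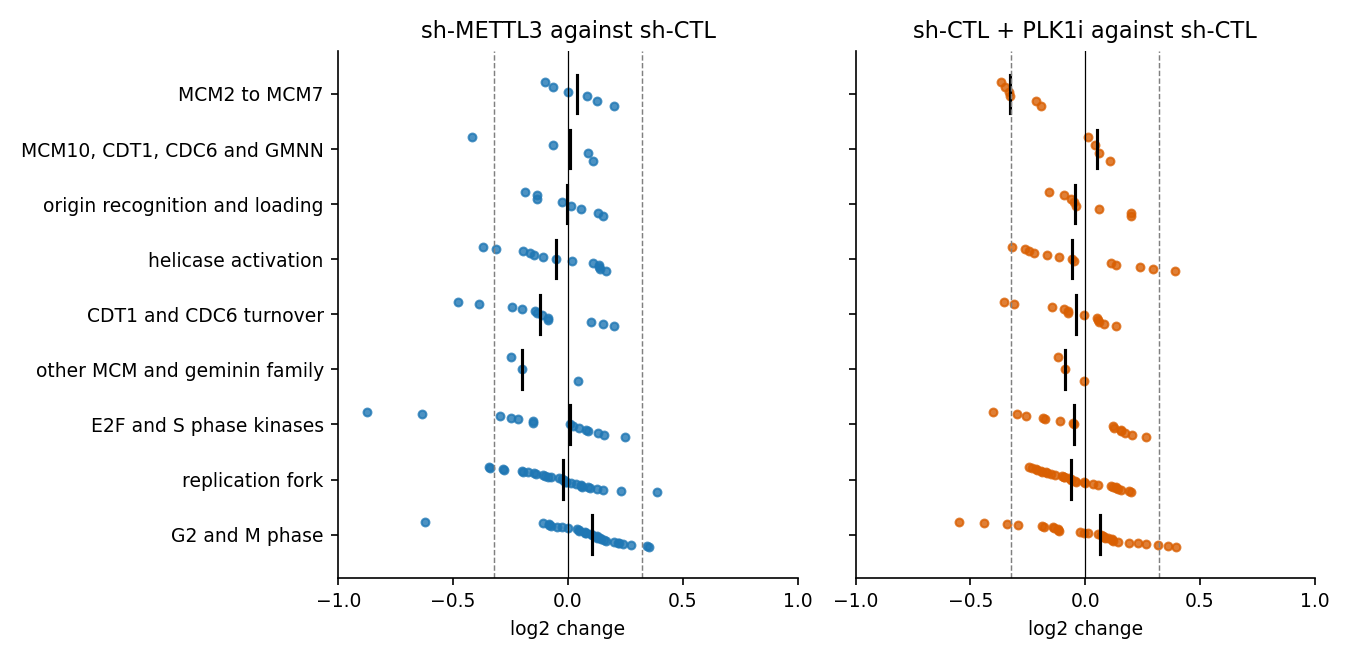
Log2 change from sh-CTL of each gene (points) and the median (bar) of the ring, the other 4 genes and 7 lists of related genes, with dashed lines at a log2 change of 0.32 in either direction; sh-METTL3 is on the left and sh-CTL + PLK1i on the right. With PLK1i the ring has a median of -0.33, and the medians of the other groups lie between -0.09 and 0.06. Single genes of those groups reach down to -0.55.

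As the ring and the other 4 genes differed with PLK1i, the median of the 10 (0.04 in sh-METTL3 and -0.20 with PLK1i) lay between them, and none of the 10 stood at that point. The closest was MCM2, at a distance of 0.11 on the log2 scale over the 2 comparisons. The 5 genes nearest to the point among those whose mean reached 500 were ETNK1, CCNDBP1, NRDE2, ZNF646 and AKR7A2, and 144 of 9064 other genes (1.59%) lay within 0.05 of it. They describe the median and not any single one of the 10.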

How the data were processed

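Per the labels, ISOGEN was used for total RNA and the TruSeq stranded mRNA kit for the libraries. The standard protocol of that kit selects polyadenylated RNA. In another experiment of the study the authors used the kit without its oligo-dT bead step. The authors deposited 1 table of log2 values for 14949 genes. The submitters' processing notes name FastQC 0.11.9, STAR 2.7.10, RSEM 1.3.3 and hg19, without their roles, and the normalization is not given in the sources used here. Columns were assigned to samples by the abbreviations CTL, MET and PLKi in their names. Low values fitted log2 of a scaled read number plus 4. Dividing by the value of 1 read (1.17, 0.927 and 0.921 in the order sh-CTL, sh-METTL3, PLK1i, or size factors of 0.858, 1.08 and 1.09) gave whole reads, within 0.1, for 100% of the values above 0 and below 2000 reads. Larger values were rounded, with an error of about 0.866 read at 25000 reads.

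Changes are differences of log2(normalized count + 1), a scale that understates the change of low genes. Intervals are 95% Clopper-Pearson intervals of 2 libraries' reads. They cover counting error only and compare libraries, not conditions. Reads were amplified without identifiers of single molecules, so copies of 1 molecule may be counted more than once and the intervals may be too narrow. With 1 library per group, no test was run. Positions and lengths came from GENCODE 44 on GRCh37, which held 14858 of the gene identifiers; neighbors had a mean of at least 50. Motifs were searched in RefSeq promoters of GRCh38.p14. The 10 genes, the 7 lists and the markers were chosen with earlier results of these data known. Named genes are the 10, METTL3 and PLK1, the extreme genes of each list in each comparison (mean of at least 100), genes past a log2 change of 0.32 in both comparisons and the 5 nearest genes. The alternatives were other pseudocounts, scalings (total reads, upper quartile, median of ratios and TMM), filters, folds, lengths and numbers of neighbors. Scripts were tested on simulated data. Python 3.11.15, numpy 2.4.6, pandas 2.3.3, scipy 1.17.1 and matplotlib 3.10.9 were used.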

Additional observations from a re-analysis of the deposited data

How the results depend on the processing

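No paired analysis was possible because each group had 1 library and the labels give no replicate numbers; for the same reason no library could be left out. Of the values recomputed for single genes, 176 of 180 stayed within the main counting interval, and 179 of 180 list medians moved by less than the median margin of their genes' intervals. With upper-quartile scaling the ring median of sh-METTL3 against sh-CTL + PLK1i was 0.42. At a fold of 1.5, the 4 genes lower with PLK1i, the 1 lower in sh-METTL3, and the 4 higher and 1 lower in sh-METTL3 against sh-CTL + PLK1i became 0 in each case. The shares of all genes moved too: for lower genes with PLK1i, 4.32% became 0.375% at a fold of 1.5 and 11.5% without the filter on the mean. With 25 neighbors on each side, the difference from the neighbors' median in sh-METTL3 turned sign for MCM6 (0.036) and MCM10 (-0.058). The median change of all genes shifted by less than 0.1 under every scaling. At these depths counting error was smaller than the changes of the ring genes with PLK1i, but in sh-METTL3 it was as large as that of MCM6 and a good part of those of MCM2 and MCM5. Variation between cultures is unknown.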
